A study of Mus musculus with 24 samples.

Results

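Circular RNAs of cardiac fibroblasts were compared between 8 weeks and 1 week after a sham operation, the longest interval of the study without pressure overload. The comparison used 8 of the 24 libraries, 4 at each time, and all 1717 circular RNAs of the deposited table. The operation opened the chest of 8-week-old male C57BL/6J mice and exposed the aortic arch, but left the aorta untied. Sham hearts were therefore taken at 9 and at 16 weeks of age, and the time since surgery, the age of the mouse and any batch of preparation cannot be told apart. The other libraries held 5 sham hearts at 4 weeks and hearts with transverse aortic constriction (TAC), in which a suture narrows the aorta and loads the left ventricle. TAC libraries numbered 4 at 1 week, 4 at 4 weeks and 3 at 8 weeks. Fibroblasts were isolated with a Langendorff perfusion system, and the labels name no sort on a cell marker. Nothing in the labels ties each library to its own animal. The p-values therefore speak of library-to-library spread alone, part of which may be technical.

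A circular RNA forms when the spliceosome joins a downstream exon's end backwards to an exon upstream of it. The loop has no free end for exonucleases, so circles are usually longer lived than the linear mRNA of the same host gene, and they gather in cells that divide rarely. Resting cardiac fibroblasts of the adult heart are such cells, which keep the matrix and turn to a contractile, matrix-secreting state after injury. The only trace of a circle in these data is the read that spans its back-splice junction, so a circle is named here by its host gene and its first and last exon, counted along the annotated GENCODE transcript of the mm10 build.

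The junction sequences below identify the circles on which the results turn, read from GENCODE transcripts of mm10. Lower case gives the last 15 bases of the downstream exon and capitals the first 15 bases of the upstream exon to which it is joined, 5′ to 3′ on the transcript strand. Ash1l and Strn3 are the hosts whose circles passed the test. Their other circles are shown because the capitals of both Strn3 junctions are identical, while the Ash1l junctions share neither side. Circles of Zfp609, Tcf20 and Dysf follow as examples whose 1-week and 8-week libraries did not overlap, and Dysf exons 31 to 40 because it shares its lower-case side with Dysf exons 37 to 40.
Ash1l exons 4 to 5: agaaaacaataaaagGTTCCCAGTCAGCTT
Ash1l exons 8 to 10: tgactgcctaaatagGAAAGTATCTCAGAC
Ash1l exons 11 to 12: tgaaatgcagaaatgAATGATCTTTGCTGA
Strn3 exons 2 to 7: atggtacagaatgggGCACGGATTGCATTT
Strn3 exons 2 to 4: acagctattaagacaGCACGGATTGCATTT
Zfp609 exon 2: gtcaagtctgaaaagCAATGATGTTGTCCA
Tcf20 exon 2: atcgccagagagatgGAGGGCTGCTGGCCT
Dysf exons 37 to 40: ctcattcctgtccagACGGAGGACACAGAT
Dysf exons 31 to 40: ctcattcctgtccagGGCGGCATGGTGGAT

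Junction reads per library numbered 3752 to 5522 at 1 week (18724 in all) and 5170 to 6103 at 8 weeks (21972 in all). The median circle had 2 reads in a library, so most single values rest on a few reads. Values are given as normalized reads, in which 1 read was worth 0.962 to 1.5 in these 8 libraries, and a value of 0 means that no read was seen. Over the 229 circles with a mean of at least 5 reads, Spearman correlations between libraries had a median of 0.387 within 1 week (6 pairs, 0.114 to 0.497), 0.491 within 8 weeks (6 pairs, 0.382 to 0.549) and 0.418 between the times (16 pairs, 0.116 to 0.585). The lowest value was that of 1-week replicates 1 and 3, and replicate 1 had 0.471 with replicate 2 and 0.256 with replicate 4. Replicate 1 also had the highest summed leukocyte (222) and matrix (153) circles of the 8, so values without it are given where they differ. With it left out, 2 circles passed the main test, as with it, whereas 0 passed without 8-week replicate 1 or without 8-week replicate 3. The correlations of 0.116 and 0.585 between the times were those of 8-week replicate 1 with 1-week replicates 1 and 3. The defining fibroblast genes Pdgfra, Tcf21, Col1a1, Col1a2, Col3a1 and Postn had no circle in the table, and Dcn, which encodes the matrix proteoglycan decorin, had 1, so the labelled cell type could not be checked from circles.

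Circles of the chromatin regulator Ash1l and of the scaffold protein Strn3 rose between 1 and 8 weeks, and no circle passed the test in the lower direction. These 2 were 0.116% of the 1717 tested (limma on log2(normalized reads + 0.5), Benjamini-Hochberg adjusted p under 0.05). At an unadjusted p under 0.05 there were 90 higher circles (5.24%) and 39 lower ones (2.27%), 129 in all where chance alone gives 85.85. This count was 128 with pseudocounts of 0.1 and 1 and 133 with TMM factors. It was 106 with voom and 106 in a fit of the 13 sham libraries. With only the 8 libraries it was 94, and 79 when replicate number was also fitted, so the excess depends on the fit. Positive log2 fold changes were seen for 929 circles (54.1%) and negative ones for 788. The median was 0.10, but -0.0056 with voom. The calls depend on pooling the spread over circles of like level, which lent the test 626 degrees of freedom instead of 18. With the spread of each circle alone, an alternative chosen after seeing the data, no circle passed, and 128 were at an unadjusted p under 0.05.

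**Figure D1:**
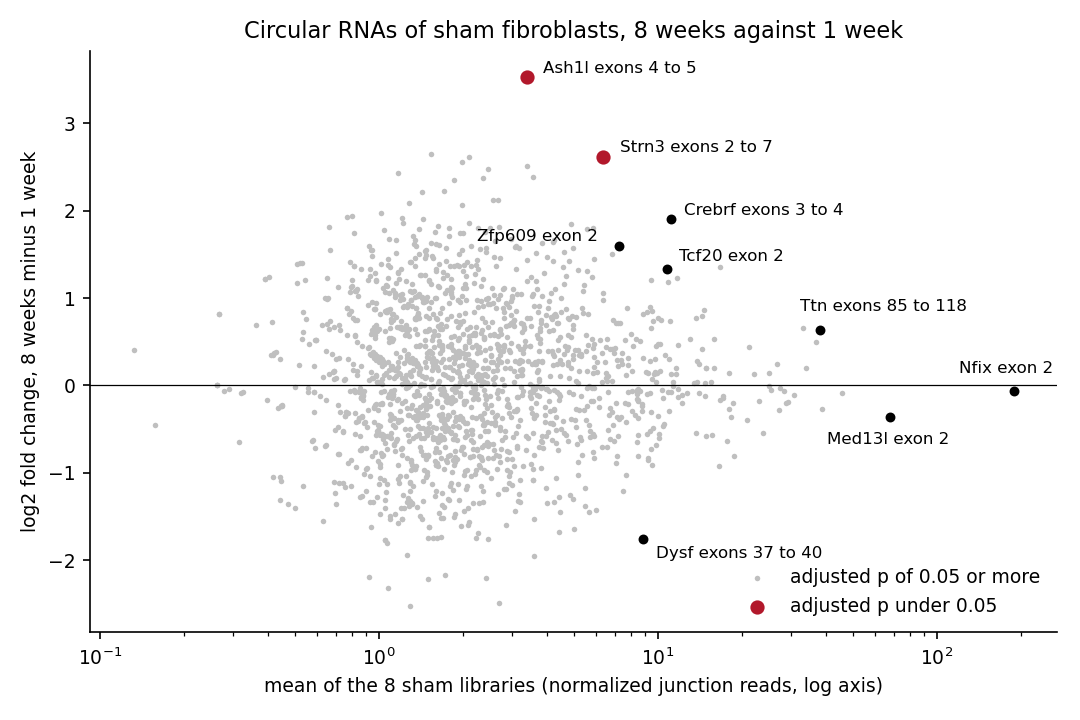
Each point is 1 of 1717 circular RNAs: the mean of the 8 sham libraries in normalized reads (log axis) against the log2 fold change from 1 to 8 weeks. The 2 circles with an adjusted p under 0.05 are red and sit above 2 on the log2 axis, and other labelled circles are black.

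Ash1l, whose protein methylates histone H3, gave rise to the circle with the largest positive fold change. The circle Ash1l exons 4 to 5 (chr3:89001773-89007877, plus strand, coding sequence, 838 spliced bases) was read in none of the 1-week libraries. At 8 weeks its level was 14.9, 3.3, 6.74 and 2.12 normalized reads in replicates 1 to 4 (6.76 ± 5.76, SD, n = 4). Every 8-week library was above every 1-week library, with 8-week replicate 1 the highest of all. Over the group that was 26 reads against 0, at least 7.28-fold higher with a floor of 3 reads for the whole 1-week group, counting error only. The fitted log2 fold change was 3.53 ± 0.78 (SE, limma adjusted p = 0.0117), a size that depends on the 0.5 added before the logarithm. The adjusted p in limma was 0.216 without 8-week replicate 1, 0.0716 without 8-week replicate 3, 0.0636 with only these 8 libraries in the fit and 0.144 with the circle's own spread.

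Strn3 encodes striatin 3, a scaffold subunit of the complexes that hold protein phosphatase 2A to kinases. Its circle Strn3 exons 2 to 7 (chr12:51647994-51661713, minus strand, coding sequence, 703 spliced bases) had 2.51, 0, 1.5 and 3.1 normalized reads at 1 week (1.78 ± 1.36, SD, n = 4). At 8 weeks the level was 14.9, 7.7, 10.6 and 10.6 (10.9 ± 2.97, SD, n = 4). The lowest 8-week library was thus above the highest 1-week library. The means differed 6.15-fold, on 42 reads against 6, and the log2 fold change was 2.62 ± 0.60 (SE, limma adjusted p = 0.0144). The limma adjusted p was 0.457 without 1-week replicate 2, the library with no read of the circle, and 0.186, 0.0716 and 0.0664 without 8-week replicates 1, 3 and 4. With only the 8 libraries in the fit it was 0.0636, and with the circle's own spread 0.0509.

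The 8 circles next in the higher direction did not pass and are given as values. Zfp609 exon 2, the mouse counterpart of the well-studied circle of human ZNF609, had 5.02, 2.49, 1.5 and 5.17 normalized reads at 1 week and 11.7, 8.8, 13.5 and 9.55 at 8 weeks (log2 fold change 1.60 ± 0.49 SE, limma adjusted p = 0.215). Its groups did not overlap. Among the 229 circles with a mean of at least 5 reads, where fewer tests share the adjustment, Zfp609 exon 2 passed, as did Strn3 exons 2 to 7 and, in the lower direction, Dysf exons 37 to 40.

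Crebrf encodes a regulator of the stress factor CREB3, and Crebrf exons 3 to 4 had 1.26, 0, 18 and 12.4 normalized reads at 1 week and 21.3, 12.1, 14.4 and 9.55 at 8 weeks. Its groups overlapped widely, since 1-week replicates 3 and 4 lay among the 8-week libraries and replicates 1 and 2 near 0. The log2 fold change of 1.90 ± 0.50 (SE, limma adjusted p = 0.0856) passed with TMM factors and without 1-week replicate 3 or 4, and its adjusted p was 0.615 with its own spread. Mettl9 exons 2 to 4, from the gene of a histidine methyltransferase, was similar in shape, with 0, 15, 28.6 and 13.4 at 1 week and 24.5, 14.3, 19.2 and 18 at 8 weeks, and its log2 fold change of 1.36 was 0.06 without 1-week replicate 1, the library with no read.

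Among scarcer circles, Lrp6 exon 2, from the gene of a Wnt co-receptor, had 0, 0, 0 and 1.03 normalized reads at 1 week and 7.45, 3.3, 2.89 and 2.12 at 8 weeks (log2 fold change 2.61, limma adjusted p = 0.215). Atf7ip exons 3 to 5, from the gene of a partner of the histone methyltransferase SETDB1, had 0, 0, 0 and 1.03 at 1 week and 6.38, 3.3, 1.92 and 3.18 at 8 weeks (log2 fold change 2.56, adjusted p 0.236). Slc8a1 exons 3 to 9, from the gene of the sodium-calcium exchanger of the cardiomyocyte membrane, had 0, 0, 3.01 and 1.03 at 1 week and 4.26, 7.7, 5.77 and 5.3 at 8 weeks (log2 fold change 2.51, adjusted p 0.236). The groups of these 3 circles did not overlap, but their 1-week levels rest on 1 to 3 reads. Clip2 exons 11 to 16, from a microtubule-binding gene, had 1.26, 2.49, 0 and 0 at 1 week and 2.13, 3.3, 7.7 and 11.7 at 8 weeks (log2 fold change 2.39, adjusted p 0.193), with 1-week replicate 2 above the lowest 8-week library. Lonp2 exons 9 to 11, from the gene of a peroxisomal protease, had no read at 1 week and 1.06, 3.3, 5.77 and 2.12 at 8 weeks, 12 reads in all and at least 3.30-fold higher (adjusted p 0.215).

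In the lower direction the smallest p belonged to a circle of Dysf, the gene of dysferlin, which reseals torn membranes in muscle and other cells. The circle of exons 37 to 40 (chr6:84149675-84152409, plus strand, coding sequence) had 13.8, 15, 15 and 11.4 normalized reads at 1 week (13.8 ± 1.71, SD, n = 4) and 3.19, 5.5, 4.81 and 2.12 at 8 weeks (3.91 ± 1.53, SD, n = 4). Every 1-week library was above every 8-week library. The log2 fold change was -1.76 ± 0.53 (SE, limma adjusted p = 0.215), which missed the threshold over all 1717 circles.

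Of the other 9 leading lower circles, Ptms, Top1mt exons 7 to 9 and Mbd1 exons 5 to 8 were read in all 4 libraries at 1 week and in none at 8 weeks. Mbd1 encodes a protein that binds methylated CpG sites, Top1mt the mitochondrial topoisomerase and Ptms parathymosin. The Ptms junction spans only 45 bases (chr6:124914635-124914679) and could not be placed on exon boundaries at both ends. Their 1-week reads numbered 8, 7 and 6, and the levels were at least 3.29-, 2.74- and 2.34-fold lower at 8 weeks with the floor of 3 reads over the group (adjusted p 0.241, 0.32 and 0.375). In normalized reads, groups also did not overlap for Mef2d exons 2 to 8, Tdrd3 exons 4 to 5 and Dysf exons 31 to 41, each with 1 read at 8 weeks against 9, 7 and 10 at 1 week. In each of these 3 circles the lowest 1-week library also held 1 read. Their separation thus comes from the library factors, and the groups tie in reads.

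Parvb exons 2 to 4, from the gene of an integrin-linked adaptor, had 8.79, 0, 4.51 and 7.24 normalized reads at 1 week and 0, 0, 0.962 and 0 at 8 weeks (log2 fold change -2.49, adjusted p 0.249). It passed without 1-week replicate 2, the library with no read. Pde5a exon 2, from the gene of the cGMP phosphodiesterase, had 5.02, 2.49, 4.51 and 11.4 at 1 week and 3.19, 1.1, 0.962 and 0 at 8 weeks (log2 fold change -1.96, adjusted p 0.459). Zcchc17 exons 6 to 7 had 2.51, 2.49, 6.01 and 4.14 at 1 week and 0, 0, 0 and 4.24 at 8 weeks (log2 fold change -2.21, adjusted p 0.293). The groups of Parvb, Pde5a and Zcchc17 overlapped.

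**Figure D2:**
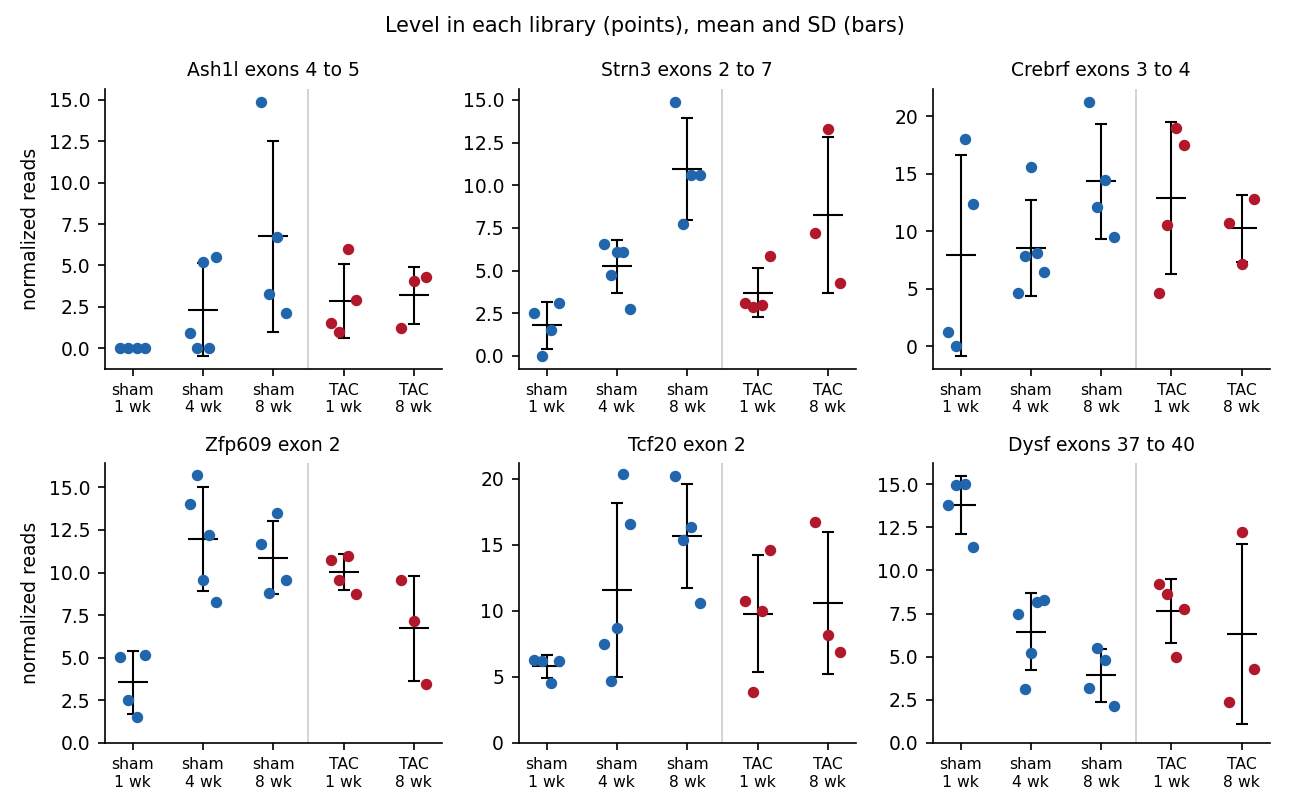
Normalized reads of 6 circles in each sham library at 1, 4 and 8 weeks (blue) and each TAC library at 1 and 8 weeks (red), with the mean and SD as bars. Ash1l exons 4 to 5 is at 0 in all 4 sham libraries of 1 week, and Zfp609 exon 2 and Dysf exons 37 to 40 in that group lie apart from the sham libraries of 4 weeks.

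Counted over all circles, the 1-week and 8-week libraries did not overlap for 37 circles in the higher direction (2.15%) and 26 in the lower (1.51%). These counts use normalized reads, so libraries with the same number of reads can count as apart. Circles read in all 4 libraries at 8 weeks and in none at 1 week numbered 6 (0.349%), and the reverse 3 (0.175%). The 6 were Ash1l exons 4 to 5, Lonp2 exons 9 to 11, Ezh2 exons 2 to 15, Itgbl1 exons 3 to 7, Itpr2 exons 3 to 9 and Clasp2 exons 2 to 6. Apart from Ash1l and Lonp2, they rest on 5 to 9 reads each. Itpr2 encodes a calcium release channel of the endoplasmic reticulum, Clasp2 a microtubule-stabilizing protein and Itgbl1 an integrin beta-like protein of the matrix. Itpr2 and Clasp2 were named after their values were seen.

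Sham hearts taken at 4 weeks give a time between. Ash1l exons 4 to 5 had 0.934, 0, 5.21, 0 and 5.53 normalized reads in the 5 libraries at 4 weeks, 2 of them at 0, with a mean of 2.33 between those of 1 and 8 weeks. Strn3 exons 2 to 7 had 6.54, 4.71, 6.07, 6.11 and 2.76, all but the last above the highest 1-week library and all below the lowest 8-week one. Zfp609 exon 2 had 14, 15.7, 9.55, 12.2 and 8.29, all above every 1-week library and spread around the 8-week ones. Dysf exons 37 to 40 had 7.47, 3.14, 5.21, 8.14 and 8.29, below every 1-week library and partly above the 8-week ones. No circle passed between 1 and 4 weeks (limma, smallest adjusted p = 0.101, 130 at an unadjusted p under 0.05) or between 4 and 8 weeks (0.371, 119). Both comparisons share sham libraries with the one from 1 to 8 weeks.

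Circles of one host did not always have the same sign of change. Of 320 hosts with at least 2 circles, 80 had only positive and 48 only negative log2 fold changes, and 192 were mixed. With 54.1% of all circles positive, mixed signs also arise by chance, and these counts were not tested against it. At an unadjusted p under 0.05, 0 hosts had circles in both directions. For Ash1l, exons 8 to 10 had 5.02, 9.98, 3.01 and 3.1 normalized reads at 1 week and 0, 0, 4.81 and 9.55 at 8 weeks (log2 fold change -1.44 ± 0.75 SE, limma adjusted p = 0.686), with 8-week replicates 1 and 2 at 0. Exons 11 to 12 stayed between 0 and 2.20 in all 8 libraries. Pooled over the libraries of a time, circle exons 4 to 5 made up 0 of 20 Ash1l junction reads at 1 week and 26 of 46 (56.5%) at 8 weeks, while exons 8 to 10 went from 17 of 20 (85%) to 14 of 46 (30.4%). The 8-week libraries differed in this. In replicates 1 to 4, exons 4 to 5 had 14.9, 3.3, 6.74 and 2.12 normalized reads beside 0, 0, 4.81 and 9.55 of exons 8 to 10. In replicate 4 exons 8 to 10 thus stayed the higher. The 3 junctions share no exon.

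For Strn3, exons 2 to 4 had 0, 0, 3.01 and 0 normalized reads at 1 week and 6.38, 1.1, 0.962 and 1.06 at 8 weeks (log2 fold change 1.46 ± 0.81 SE, limma adjusted p = 0.689). Its share of pooled Strn3 junction reads was 2 of 8 and then 9 of 51 (17.6%), so both circles that open at exon 2 had more reads at 8 weeks. For Dysf, exons 31 to 40, which close at the same exon as exons 37 to 40, had 15.1, 12.5, 0 and 5.17 at 1 week and 5.32, 3.3, 11.5 and 4.24 at 8 weeks (log2 fold change 0.29 ± 0.66 SE, adjusted p 0.951). The shorter circle held 44 of 89 pooled Dysf junction reads at 1 week (49.4%) and 15 of 46 at 8 weeks (32.6%), the longer one 27 (30.3%) and 24 (52.2%). The difference between circles of 1 host was not tested.

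**Figure D3:**
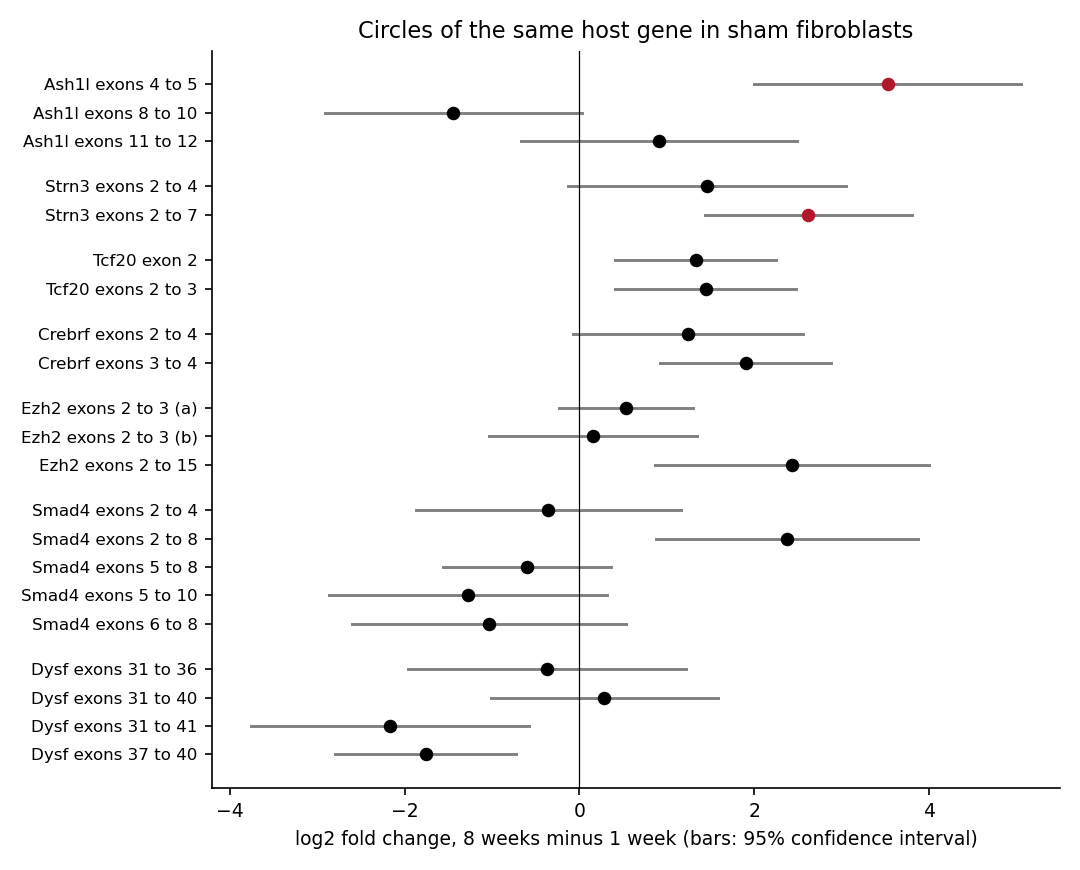
Log2 fold change from 1 to 8 weeks with its 95% confidence interval for the circles of 7 host genes, red where the adjusted p is under 0.05. Both Tcf20 circles lie to the right of 0, while Smad4 and Dysf have circles on both sides. Marks (a) and (b) tell apart a pair of Ezh2 junctions with the same exon numbers.

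Further hosts were chosen after their values were seen. Akap7, Tcf20 and Zfp644 each had 2 circles higher at an unadjusted p under 0.05, and Dysf was the only host with 2 lower ones. No host had circles past that level in both directions. Tcf20 encodes a transcriptional coregulator, and its exon 2 alone, 5772 bases long, had 6.28, 6.23, 4.51 and 6.2 normalized reads at 1 week and 20.2, 15.4, 16.4 and 10.6 at 8 weeks (log2 fold change 1.33 ± 0.47 SE, limma adjusted p = 0.32). The groups did not overlap, on 19 against 60 reads. Tcf20 exons 2 to 3 had 0, 1.25, 7.51 and 8.27 at 1 week and 11.7, 4.4, 7.7 and 6.36 at 8 weeks (log2 fold change 1.44, adjusted p 0.375), with overlap.

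Ezh2, the catalytic subunit of Polycomb complex 2, had a circle of exons 2 to 15 at 0 in every 1-week library. At 8 weeks it had 1.06, 2.2, 2.89 and 3.18, 9 reads in all (limma adjusted p = 0.263). Its 8-week mean was 2.51 times the floor of 3 reads for the 1-week group. The main Ezh2 circle, exons 2 to 3 (chr6:47576536-47577667), had 7.54, 12.5, 19.5 and 10.3 at 1 week and 19.2, 7.7, 19.2 and 30.8 at 8 weeks (log2 fold change 0.53, adjusted p 0.761). Smad4, the common partner of the SMADs activated by TGF-beta, had 5 circles. Exons 2 to 8 had 0, 0, 0 and 3.1 at 1 week and 5.32, 4.4, 3.85 and 2.12 at 8 weeks (log2 fold change 2.37, adjusted p 0.249), whereas the most abundant one, exons 5 to 8, had 10, 8.73, 15 and 12.4 at 1 week and 2.13, 13.2, 9.62 and 9.55 at 8 weeks (log2 fold change -0.60, adjusted p 0.789).

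None of the 10 most abundant circles passed, and they are given with 95% confidence intervals of the log2 fold change. Nfix exon 2, from the gene of a nuclear factor I protein, led with 299, 196, 120.2 and 169 normalized reads at 1 week and 135, 211, 214 and 161 at 8 weeks. The groups overlapped, and its log2 fold change of -0.07 had a 95% confidence interval of -0.37 to 0.23. Med13l exon 2, from a Mediator kinase module gene, followed with -0.37 (-0.83 to 0.10). The widest interval of the 10 was that of Ttn exons 85 to 118, from the gene of the sarcomere protein titin (0.64, -0.07 to 1.35).

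Only Lrch3 exons 2 to 6 had an interval that did not reach 0 (0.66, 0.05 to 1.26, limma adjusted p = 0.592). Its levels were 15.1, 13.7, 40.6 and 38.3 at 1 week and 53.2, 26.4, 34.6 and 42.4 at 8 weeks, with 1-week replicates 3 and 4 among the 8-week libraries. The others were Mmp15 exons 2 to 3 (-0.09), Tlk1 exons 2 to 3 (-0.27), Rnf169 exons 2 to 4 (0.50), Rad52 exons 10 to 11 (0.20), Adgre1 exons 11 to 12 (-0.11) and Fbxw4 exons 2 to 5 (-0.18). Adgre1 encodes the macrophage marker F4/80. Its circle stood at 74.1, 21.2, 22.5 and 19.6 at 1 week, where replicate 1 was high, and at 20.2, 34.1, 27.9 and 26.5 at 8 weeks.

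**Figure D4:**
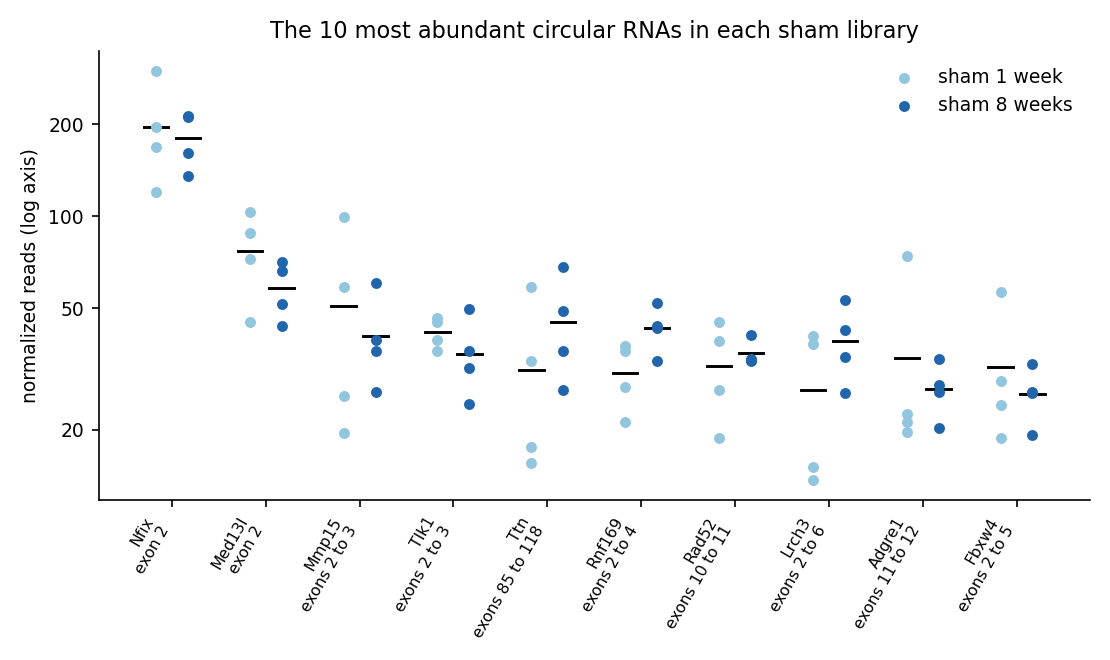
Normalized reads (log axis) of the 10 most abundant circles in the 4 sham libraries at 1 week (light) and the 4 at 8 weeks (dark), with lines at the means. The groups overlap for each of the 10, and the SD is larger at 1 week for all but Tlk1 exons 2 to 3.

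Spread between libraries was larger at 1 week. Over the 85 circles with a mean of at least 10 normalized reads in the 8 libraries, the median SD of the log2 values was 0.632 at 1 week, 0.471 at 8 weeks and 0.450 at 4 weeks. Mean junction reads per library were 4681 at 1 week, 5493 at 8 weeks and 5666 at 4 weeks. In TAC libraries the median SD was 0.532 at 1 week, 0.339 at 4 weeks and 0.378 at 8 weeks. The difference in spread was not tested, nor was the part of depth or of 1-week replicate 1 in it.

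Host genes were also read by role, in lists written with earlier results of these data known. Their shares are descriptions without a test. Chromatin regulators, the enzymes and readers that set histone marks and remodel nucleosomes, held 69 circles of 40 hosts, with 43 positive and 26 negative log2 fold changes. One passed, Ash1l exons 4 to 5. At an unadjusted p under 0.05, 10 were higher (14.5%, against 5.24% of all circles) and 0 lower. Besides circles of Ash1l, Atf7ip, Ezh2 and Tcf20, these were Chd2 exons 3 to 5 (mean 1.57 ± 0.644 to 5.22 ± 2.28 normalized reads, SD, n = 4 each), Arid2 exons 17 to 20, Ehmt1 exons 2 to 3, Rere exon 2 and Setbp1 exon 2, named after their values were seen. The adjusted p-values of the circles other than Ash1l were 0.236 or more. Without 1-week replicate 1, 8 were higher and 1 lower. Chd2 is a nucleosome remodeller, Arid2 a subunit of the PBAF remodelling complex and Ehmt1 a methyltransferase of histone H3. The median of the list was 0.23, against 0.10 over all circles. It was also 0.23 with 4 circles absent from 1 group set at their fold over the floor of 3 reads. With a pseudocount of 0.1 it was 0.46, against 0.18 over all circles. The summed level did not separate the groups: 291, 294, 296 and 347 normalized reads at 1 week and 336, 308, 334 and 359 at 8 weeks.

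Widely reported circular RNA hosts had 100 circles, of which Strn3 exons 2 to 7 passed and 8 (8%, against 5.24% of all circles) were higher and 0 lower at an unadjusted p under 0.05 (median 0.17). Of these 8, both Tcf20 circles are also among the chromatin regulators. Slc8a1 exons 3 to 9, Ttn exons 84 to 118, Smad4 exons 2 to 8 and Fbxw7 exon 4 are in other lists too. Only Strn3 exons 2 to 7 and Zfp609 exon 2 belong to this list alone. None of the other 14 lists held a circle that passed, and each of them had at most 2 circles in either direction at an unadjusted p under 0.05. Extracellular matrix genes had 18 circles (median -0.08), with Itgbl1 exons 3 to 7 and Col4a2 higher and Sparc and Hspg2 exons 34 to 36 lower at that level. Itgbl1 had 0, 0, 0 and 0 at 1 week and 1.06, 3.3, 0.962 and 1.06 at 8 weeks normalized reads, and Hspg2, the perlecan gene, had 1.26, 1.25, 3.01 and 1.03 at 1 week and 0, 0, 0.962 and 0 at 8 weeks. The limma adjusted p was 0.535 or more for these 4.

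Contractile and adhesion genes had 20 circles (median 0.02), led by Tns3 exons 18 to 20 with 3.77, 3.74, 0 and 4.14 at 1 week and 6.38, 4.4, 8.66 and 5.3 at 8 weeks normalized reads (adjusted p 0.535). The Tns3 groups did not overlap in normalized reads, but 4.14 and 4.4 stand for the same number of reads. Tns3 encodes a tensin of focal adhesions. TGF-beta, BMP and SMAD genes had 13 circles (median 0.01), receptor kinase and growth factor genes 27 (0.15) and inflammatory and stress signalling genes 12 (0.27), 10 of them positive. RNA binding and splicing genes had 37 circles (median -0.02), among them Gigyf2 exons 4 to 8 with 8.79, 7.48, 15 and 10.3 at 1 week and 18.1, 23.1, 16.4 and 18 at 8 weeks (adjusted p 0.564), without overlap. Gigyf2 encodes a repressor of translation. Ubiquitin ligases and proteases had 30 circles (0.00), cell cycle genes 13 (0.24) and DNA repair genes 7 (0.20). The cell cycle median was 0 with 1 circle set at its fold over the floor of 3 reads. Without 1-week replicate 1 the medians were -0.04 for matrix, 0.01 for contractile and adhesion, 0.08 for TGF-beta, 0.07 for receptor kinase, 0.54 for inflammatory, -0.25 for RNA binding, -0.02 for ubiquitin and -0.03 for DNA repair genes, beside 0.05 over all circles.

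**Figure D5:**
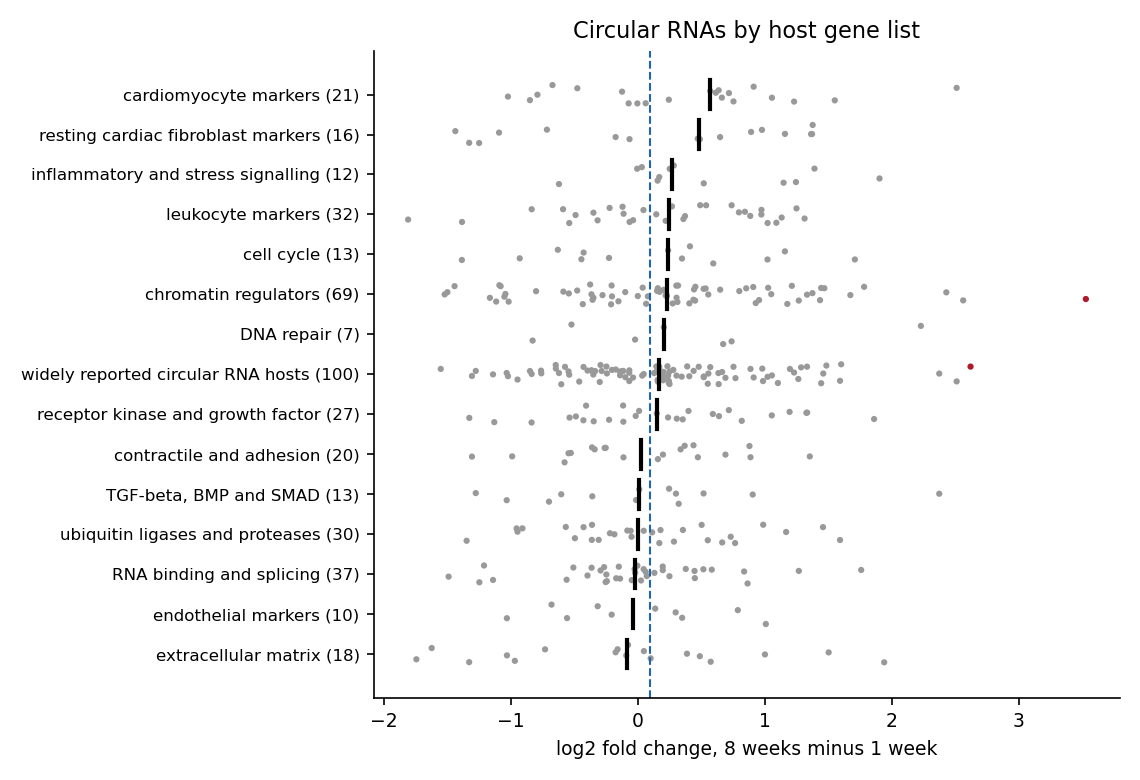
Log2 fold change from 1 to 8 weeks of every circle in 15 host gene lists (points, red where the adjusted p is under 0.05), with the median of each list as a black bar and that of all 1717 circles as a dashed line. Circle counts stand in brackets, and vertical scatter within a row has no meaning.

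Circles of other cell types were present in these libraries. Cardiomyocyte genes had 21 circles from 12 of the 55 genes listed, and their summed level was 55.3, 92.3, 159 and 49.6 normalized reads at 1 week and 146, 97.9, 70.2 and 124 at 8 weeks. The groups overlapped, and the median log2 fold change of 0.57 was -0.01 without 1-week replicate 1. Ttn and Ryr2 had 3 circles each and went opposite ways. The mean sum of the Ttn circles was 42.7 at 1 week and 65.3 at 8 weeks, that of the Ryr2 circles 14.6 and 7.91. Of the 21 cardiomyocyte circles 13 had positive and 8 negative log2 fold changes. Myh6, Tnnt2 and Actc1 had no circle in the table. Leukocyte genes had 32 circles from 13 of 58 genes, with sums of 222, 112, 101 and 127 at 1 week and 136, 122, 179 and 172 at 8 weeks (median 0.24), 6 of them from Adgre1, while Ptprc, Csf1r and Cd68 had none. At an unadjusted p under 0.05, 0 leukocyte circles were higher and 2 lower, or 1 and 1 without 1-week replicate 1. Ets1 exons 4 to 6, from the gene of a lymphoid transcription factor, had 10, 8.73, 9.02 and 2.07 at 1 week and 2.13, 7.7, 0 and 4.24 at 8 weeks (log2 fold change -1.39, adjusted p 0.581). Prkcb exons 6 to 7, from the gene of protein kinase C beta, had 1.26, 1.25, 3.01 and 2.07 at 1 week and 0, 0, 0.962 and 0 at 8 weeks (log2 fold change -1.81, adjusted p 0.581). Its groups did not overlap in normalized reads, but 1.26, 1.25 and 0.962 each stand for 1 read.

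Endothelial genes had 10 circles from 7 of 35 genes, with sums between 8.79 and 26.2 in the 8 libraries (median -0.03, or -0.19 without 1-week replicate 1). Mural cell genes had 1 circle, from Abcc9, at 3.77, 7.48, 0 and 9.31 at 1 week and 1.06, 8.8, 2.89 and 2.12 at 8 weeks normalized reads. Resting cardiac fibroblast genes had 16 circles from 11 of 38 genes, with sums of 44, 44.9, 39.1 and 36.2 at 1 week and 44.7, 37.4, 38.5 and 47.7 at 8 weeks and a median of 0.48, or 0.17 without 1-week replicate 1. The part of cell makeup in the results for Ash1l, Strn3, Slc8a1 and the lists was not tested, and in bulk libraries fewer cells of a type and fewer circles per cell cannot be told apart.

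Circles made of 1 exon numbered 105, of which 16.2% were at an unadjusted p under 0.05 (12 higher, 5 lower), against 6.89% of 1552 circles with more exons. Circles with untranslated sequence, 288 in all, stood at 11.5% (28 higher, 5 lower) and the 1362 of coding exons alone at 6.53%. These shares are descriptions without a test. The classes overlap, as Zfp609 exon 2 belongs to both, and they were not matched for depth. By depth, the share was 5.76% of the 990 circles with a mean under 2 reads and 9.15 to 10.8% in the deeper classes. With all 8 libraries, properties of the whole libraries did not separate the times. Circles expected at an equal depth of 3752 reads numbered 1166 ± 55.9 at 1 week and 1205 ± 8.62 at 8 weeks (SD, n = 4 each, exact two-sided permutation p = 0.229, adjusted over 6 summaries 0.686). The share of reads in the 10 most abundant circles was 9.51 ± 2.15% and 9.26 ± 0.551% (exact permutation p = 0.943), and in single-exon circles 10.3 ± 1.77% and 10.3 ± 0.921% (exact permutation p = 0.914). With 4 libraries against 4 the smallest p this test can give is 0.0286.

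The same interval under pressure overload was measured in 4 TAC libraries at 1 week and 3 at 8 weeks, which share no library with the sham comparison. No circle passed there (limma, smallest adjusted p = 0.273; 129 at an unadjusted p under 0.05). Ash1l exons 4 to 5 had 1.54, 0.959, 5.99 and 2.92 normalized reads in TAC hearts at 1 week and 1.2, 4.09 and 4.29 at 8 weeks (log2 fold change 0.23 ± 0.84 SE), so it was read in every 1-week TAC library and in no 1-week sham library. Strn3 exons 2 to 7 had 3.08, 2.88, 2.99 and 5.84 at 1 week and 7.18, 13.3 and 4.29 at 8 weeks (0.98 ± 0.65 SE). Zfp609 exon 2 had 10.8, 9.59, 11 and 8.76 at 1 week and 9.58, 7.15 and 3.43 at 8 weeks, and Dysf exons 37 to 40 had 9.23, 8.63, 4.99 and 7.78 at 1 week and 2.39, 12.3 and 4.29 at 8 weeks. In both circles each 1-week TAC library lay on the 8-week side of every 1-week sham library, a difference that was not tested.

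The difference of the change over the interval, TAC minus sham, was tested directly. It was -3.30 ± 1.14 (log2, SE) for Ash1l exons 4 to 5 (limma adjusted p = 0.279) and -1.64 ± 0.89 for Strn3 exons 2 to 7 (adjusted p 0.592), so neither was shown to differ. No circle passed for this difference, with 148 (8.62%) at an unadjusted p under 0.05. The smallest adjusted p, 0.0557, was shared by S100pbp exons 2 to 5 and a junction of Lncpint, a long non-coding RNA of the p53 response, both named after their values were seen. S100pbp had 0, 0, 0 and 1.03 normalized reads in sham hearts at 1 week and 6.38, 4.4, 0.962 and 2.12 at 8 weeks, but 3.08, 1.92, 3.99 and 4.86 at 1 week and 0, 0 and 0.857 at 8 weeks in TAC hearts. Lncpint had 3.77, 2.49, 3.01 and 3.1 at 1 week and 1.06, 2.2, 0 and 1.06 at 8 weeks in sham, and 0, 0.959, 0 and 0 at 1 week and 7.18, 5.11 and 3.43 at 8 weeks in TAC hearts.

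Over all 1717 circles, 826 (48.1%) had the same sign of change over the interval in TAC as in sham hearts. Among the 10 leading higher sham circles the number was 4, and among the 10 leading lower ones 5. Of the 90 circles higher in sham at an unadjusted p under 0.05, 33 (36.7%) were positive in TAC, and of the 39 lower ones 19 (48.7%) were negative.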

How the data were processed

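Libraries were made per the labels' protocols from DNase-treated total RNA, with Ribo-Zero Gold removal of ribosomal RNA and a stranded kit, and sequenced in paired-end mode. FastQC, Trimmomatic and STAR, without versions, and the build mm10 appear in the submitters' processing notes. No label or header used here gives the caller's settings, its filters or the normalization. In the deposited table the authors give back-splice reads as a normalized signal: each value minus 0.01 was a whole multiple, within 0.001 of a read, of 1 step per library, and 0.01 was removed here. The steps gave the read counts quoted.

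A linear model of log2(value + 0.5) with 6 groups was fitted to all 24 libraries, with limma (version 3.58.1, R 4.3.3) and a prior spread that follows the mean level. P-values were two-sided and adjusted over 1717 circular RNAs by the Benjamini-Hochberg method. Every circle had 2 or more reads in 3 or more libraries, the filter set here. Host genes came from GENCODE exon boundaries, and 1666 junctions matched at both ends. All 12 pairs within the sham groups of 1 and 8 weeks differed beyond counting noise (largest chi-square p 0.00101). Floors of 3 reads cover counting error of the group without a read alone, and confidence intervals are those of the limma fit.

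Named circular RNAs were those called, the next by p to 10 in each direction, the 10 most abundant, up to 2 in each direction per host list, other circles of called hosts, and circles called for the TAC minus sham difference. The comparison, lists and naming rule were chosen with earlier results of these data known.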

Additional observations from a re-analysis of the deposited data

Results flagged for a closer look

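Among 97 sets of 4 sham libraries checked, in 10 the highest library lay far from the other 3 by Dixon's ratio. Chance marks about 1 set in 20 of normally spread values, a rate that need not hold for counts of a few reads. In 7 of the 10 sets the other 3 libraries had no read, which by itself fixes the ratio at 1. The mark there rests on single circles read once or a few times. These were Lrp6 exon 2 and Atf7ip exons 3 to 5 in 1-week replicate 4 (1.03 normalized reads each), Parvb exons 2 to 4, Dysf exons 31 to 41 and Tdrd3 exons 4 to 5 in 8-week replicate 3 (0.962 each), Mef2d exons 2 to 8 in 8-week replicate 2 (1.10) and Zcchc17 exons 6 to 7 in 8-week replicate 4 (4.24). The other 3 rest on more reads. Adgre1 exons 11 to 12 stood at 74.1 in 1-week replicate 1, with the next library at 22.5. The summed chromatin regulator circles stood at 347 in 1-week replicate 4, with the next at 296. Rad52 exons 10 to 11 stood at 40.7 in 8-week replicate 2, with the next at 34.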

How the results depend on the processing

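The sham calls held with pseudocounts of 0.1 and 1, with factors from total reads or median ratios and in a fit of the 13 sham libraries (2 calls each, Ash1l and Strn3), and with TMM factors (3, Crebrf added). They numbered 1 with voom (Ash1l) and 0 with only the 8 libraries or with the spread of each circle alone. Leaving out each replicate in turn gave 0 to 4: 0 without 8-week replicate 1 or 3, 1 without 8-week replicate 4, and 4 without 1-week replicate 3. Among the 23 leading circles a call was lost in 13 pairings with an alternative and gained in 8, and no direction reversed. All 13 losses fell on the 2 called circles. Ash1l exons 4 to 5 lost its call in 5 settings and kept it in 14, and Strn3 exons 2 to 7 lost its call in 8 and kept it in 12. Dropping the filter tests nothing, since it removed no circle. For TAC 8 weeks against 1 week voom gave 1 call. For the TAC minus sham difference a pseudocount of 1 gave 2, voom 3 and leaving out replicates 0 to 8, with 8 without sham 1-week replicate 3 and 6 without TAC 1-week replicate 1. For sham 4 weeks against 1 week a mean of at least 5 reads gave 1, and leaving out replicates 0 to 4, with 4 without 1-week replicate 1. Leaving out replicates moved the 8-week minus 1-week difference of the library summaries as follows, with the cause not tested: total reads 502 to 1092, circles at equal depth 12.7 to 56.3, share of the 10 most abundant -0.797 to 0.803, share of single-exon circles -0.707 to 0.713, share with untranslated sequence 0.215 to 1.39 and mean log10 span -0.00582 to 0.0505. In total reads and in circles at equal depth the value without 1-week replicate 4 had an exact permutation p of 0.0286. That is the smallest p this test can give with 3 libraries against 4, as the remaining 1-week libraries lay below every 8-week library. Same-numbered replicates of the sham groups deviated with correlations of -0.330 to 0.0492, which cannot exclude a pairing. The replicate numbers are those of the sample titles, which at 8 weeks differ from the numbers in the library names. A pairing by library name was not examined. The replicate block was fitted only to the 8 libraries, where 0 circles were called with it and 0 without it. The planned edgeR and DESeq2 tests were not run, and voom on the recovered reads is the only count-based alternative. Over all circles the median change was 0.10; it was 0.18 and 0.05 with pseudocounts of 0.1 and 1, 0.17 with TMM factors, 0.05 with median ratios, -0.0056 with voom, and 0.04 to 0.14 without 1 replicate. Depth was low for many circles: 990 had a mean under 2 reads.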
